A study of Mus musculus with 3 samples.

Results

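AP-1 and immediate early genes are described here in mouse embryonic stem (ES) cells. The set comprises 10 genes, listed by symbol and matched to the probes of the authors' table of processed values: Fos, Fosl1, Fosl2, Jun, Junb, Jund, Atf3, Egr1, Ier2 and Ier3. Of the 10 genes, 9 had a named probe, out of 9678 genes with a named probe in all, and each of the 9 was read by a single named probe. Fosl1, which encodes the Fos-related antigen FRA-1, had no named probe and was not analysed here.

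RNA came from 3 biological replicates of OS25, a mouse ES cell line, and each was hybridised to an Illumina BeadArray. The only group is undifferentiated ES cells, grown with 10% foetal calf serum, 1000 units/mL of human recombinant leukaemia inhibitory factor (LIF) and hygromycin. The series was collected beside a profile of acetylation of lysine 16 on histone H4, and it holds no treated, differentiated or serum-starved sample. With a single group, no test between conditions could be made, and each value is given beside the spread between the 3 arrays.

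Immediate early genes are transcribed within minutes of a stimulus such as serum, a growth factor or stress, without new protein synthesis, and most of their mRNAs decay quickly. MAP kinase signalling leads to phosphorylation of factors already bound at their promoters, among them serum response factor (SRF) with its ETS partners, CREB, ATF2 and JUN. The AP-1 factor is a dimer of basic leucine zipper proteins: FOS proteins must pair with a JUN protein to bind DNA, while JUN proteins can also pair among themselves or with ATF proteins. In ES cells, serum and LIF both feed the MAP kinase pathway.

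The expression values are normalised log2 intensities, obtained from the unprocessed bead intensities by background correction and quantile normalisation. A probe was taken as above background on an array where its detection p-value, which ranks it against the negative control beads of that array, was under 0.01. A detection p of 0 means that no control bead type was brighter. Of the 45281 probes, between 14515 and 15865 were above background on an array. Replicate 1 stood apart from the others: across detected genes, Pearson's correlation was 0.944 and 0.946 between replicate 1 and replicates 2 and 3, and 0.991 between replicates 2 and 3, as a description over genes that share arrays. The label was checked against markers. Of 18 pluripotency genes, 6 had a named probe. Of the 6, 4 were detected on all 3 arrays (Klf2, Klf4, Klf5 and Tbx3), against 82.1% of all 9678 genes with a named probe. The other named probes were those of the ES cell markers Zfp42, with a detection p of 0.00107, 0.0374 and 0.0203, and Tfcp2l1, with 0.0203, 0.248 and 0.512 on replicates 1, 2 and 3. Zfp42 was thus above background on replicate 1 alone, and Tfcp2l1 on no array. The defining genes Pou5f1, Nanog, Sox2 and Esrrb had no named probe in the authors' table of processed values. The markers measured bear out the label only weakly. Of 15 fibroblast genes, 11 had a named probe. Of the 11, 9 were detected, a share near the 82.1% of all genes with a named probe. Of the 9, 5 spanned over 2-fold between arrays, against 10.1% of all detected genes. That count was 4 with quantile normalisation alone and with the authors' processed values, and 6 without normalisation between arrays. On replicate 1, 3 of the 9 were lowest and 5 highest, against 43.4% and 43.3% of all detected genes. Col1a1 was at 11.95, 11.99 and 11.76 and Vim at 12.19, 13.43 and 13.40 on replicates 1, 2 and 3. Col1a2 was at 7.55, 6.88 and 6.36 on the same arrays. Col3a1 was at 5.68 and 5.59 on replicates 1 and 2 and not above background on replicate 3 (detection p of 0.0256). Dcn, which encodes decorin, was at 12.28 and 6.77 on replicates 1 and 2 and not above background on replicate 3 (detection p of 0.0128). Thy1 was at 6.81, 9.85 and 9.49 and Pdgfra at 9.59, 6.07 and 5.84. The part of other cell types in the values below was not tested, and in bulk RNA fewer cells of a type and less RNA per cell cannot be told apart.

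Transcripts of Fos, Fosl2, Jun, Junb, Jund, Atf3, Egr1 and Ier3 were all present in the cultures. Of the 9 genes with a named probe, 8 (88.9%) were detected on all 3 arrays, against 82.1% of all 9678 genes with a named probe, so the share is near the background. That background is itself high, because names were available only for probes in the authors' processed table. Ier2 was above background on replicate 1 alone.

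**Figure D1:**
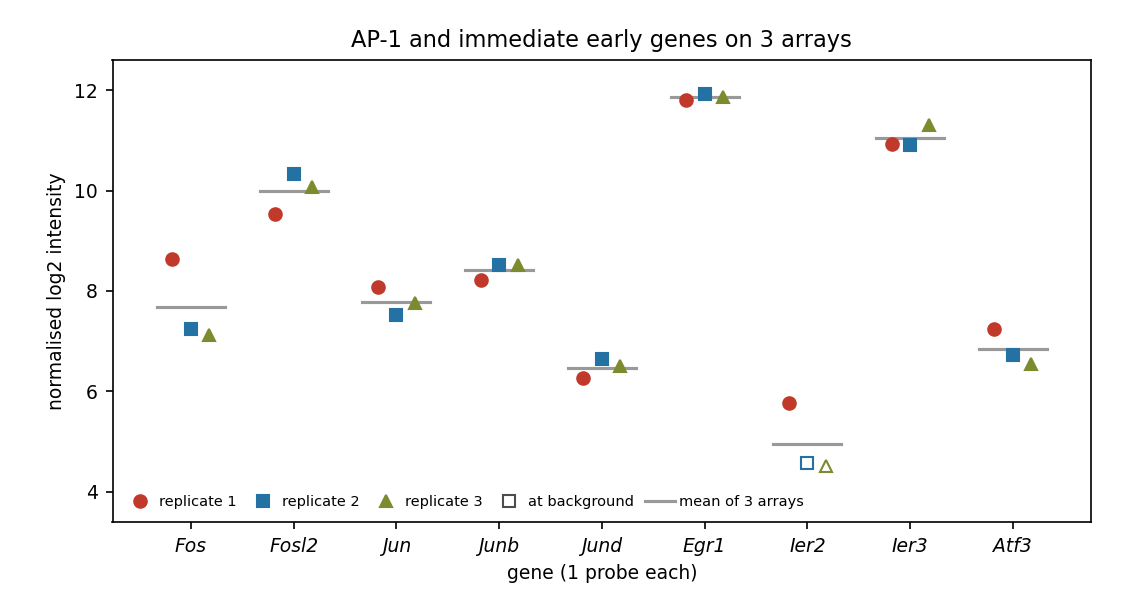
Normalised log2 intensity (vertical axis) of the 9 genes with a named probe on replicates 1, 2 and 3; filled symbols are above background, open symbols at background, and grey bars are the mean of 3 arrays. Fos, at 8.65 on replicate 1, sits apart from its other arrays at 7.25 and 7.13, while the 3 points of Egr1 lie between 11.80 and 11.92; heights of different genes come from different probes and are not comparable.

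Among the FOS family, Fos encodes c-FOS, the classical serum-induced partner of JUN. Fos reached a normalised log2 intensity of 8.65 on replicate 1, against 7.25 and 7.13 on replicates 2 and 3, with a mean of 7.68 ± 0.84 (SD, n = 3). Before normalisation its intensity was 540, 201 and 170 on the same arrays. Replicate 1 was thus high and the other arrays lay close together, with a 2.86-fold difference between the highest and the lowest array. Without replicate 1, the range of Fos was 0.12 log2 units.

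Fosl2 encodes FRA-2, a FOS family protein that lacks the strong activation domain of c-FOS and is usually more stable. Its level ran in the other direction, at 9.53, 10.34 and 10.08 on replicates 1, 2 and 3 (9.98 ± 0.41, n = 3). Replicate 1 was the lowest array, and the range was 0.80 log2 units, or 1.75-fold. The unprocessed intensities of Fosl2 were 942, 1303 and 976, so the gap between replicates 1 and 3 appears only once the arrays are scaled to each other.

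In the JUN family, Jun encodes c-JUN, the member that the JNK kinases phosphorylate and that can activate its own promoter. Its level was 8.08, 7.52 and 7.75 on the 3 arrays in order (7.78 ± 0.28, n = 3), and its intensity was 384, 232 and 233. Like Fos, Jun was highest on replicate 1, but the range of 0.57 log2 units (1.48-fold) was narrower.

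Junb encodes a JUN protein that can oppose c-JUN in proliferation. The Junb level was 8.23, 8.52 and 8.53 on replicates 1, 2 and 3 (8.42 ± 0.17, n = 3). Replicates 2 and 3 differed by 0.0102 log2 units, and replicate 1 was the lowest array. Before normalisation the intensity of Junb was 416, 410 and 363, highest on replicate 1.

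Jund encodes the JUN protein whose mRNA is the least dependent on stimulation in most cells. It stood at 6.27, 6.64 and 6.51 (6.47 ± 0.19, n = 3), again lowest on replicate 1. Its intensity was 149, 153 and 129, not far above the array medians of 80.7, 79.8 and 74.9, while its detection p was 0 on each array. Within the family, Jun was therefore highest and Junb and Jund lowest on replicate 1 with quantile normalisation. Without normalisation between arrays, Jun and Junb were highest on replicate 1 and Jund was lowest on replicate 3.

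Atf3 encodes a basic leucine zipper protein of the ATF/CREB family that pairs with JUN proteins and is induced by many stresses, including through p53 and ATF4. Its level was 7.25, 6.72 and 6.55 on replicates 1, 2 and 3 (6.84 ± 0.37, n = 3), and its intensity was 243, 158 and 132. Replicate 1 was the highest array, and the highest and lowest arrays differed by 1.63-fold.

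Egr1 encodes a zinc finger factor that SRF and its ETS partners switch on along with Fos in stimulated cells. Egr1 had the narrowest range of the 8 detected members with quantile normalisation over all 3 arrays. It did not without normalisation between arrays, where its range was 0.30 log2 units against 0.21 for Junb and 0.28 for Ier3. Without replicate 1, Junb was narrower than Egr1, and without replicate 3, Ier3 was narrower. The level of Egr1 was 11.80, 11.92 and 11.86 on replicates 1, 2 and 3 (11.86 ± 0.06, n = 3), and its intensity was 4104, 3867 and 3343. The highest and lowest arrays differed by 1.09-fold, so the 2.86-fold difference in Fos between arrays was not accompanied by one of like size in Egr1.

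Ier3, which encodes a short-lived protein that affects survival and ERK signalling, was at 10.92, 10.90 and 11.30 (11.04 ± 0.22, n = 3). Replicate 3 was the high array here, and the range was 0.40 log2 units. The intensity of Ier3 was 2307, 1916 and 2277, highest on replicate 1. With quantile normalisation, Ier3 was the only detected member for which replicate 1 was neither the highest nor the lowest array. Without normalisation between arrays, Ier3 was highest on replicate 1, and Jund was the member neither highest nor lowest there.

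Ier2, which encodes a nuclear protein named for its immediate early induction, had an intensity of 122 on replicate 1, against 76.0 on replicate 2 and 69.8 on replicate 3. Its detection p was 0 on replicate 1, against 0.303 and 0.393 on the others, and its normalised level on replicate 1 was 5.77. The other arrays give only an upper limit. The dimmest probes above background were at 5.35 and 5.49 on replicates 2 and 3, and against the mean of these floors, 5.42, Ier2 was at least 1.28-fold higher on replicate 1. The measured values at background were 4.57 and 4.52.

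The promoters of Fos, Jun and Atf3 are shown because TGACATCA or TGACGT was found in them and in none of the other promoters searched. TGACGT was chosen after the letters had been read, so this split was not set in advance. Any link between these letters and the levels on replicate 1 was not tested. The sequences are the 250 bases before the transcription start, from RefSeq (GRCm38.p6), on the gene's strand, and capitals mark TGACATCA in Jun and TGACGT, on either strand, in Fos and Atf3.
Fos, chr12:85473640-85473889, plus strand: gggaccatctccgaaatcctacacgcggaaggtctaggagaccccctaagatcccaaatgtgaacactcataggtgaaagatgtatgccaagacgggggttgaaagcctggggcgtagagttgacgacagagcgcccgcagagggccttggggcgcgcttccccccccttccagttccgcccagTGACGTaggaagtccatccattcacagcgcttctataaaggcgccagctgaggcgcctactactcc
Jun, chr4:95052223-95052472, minus strand: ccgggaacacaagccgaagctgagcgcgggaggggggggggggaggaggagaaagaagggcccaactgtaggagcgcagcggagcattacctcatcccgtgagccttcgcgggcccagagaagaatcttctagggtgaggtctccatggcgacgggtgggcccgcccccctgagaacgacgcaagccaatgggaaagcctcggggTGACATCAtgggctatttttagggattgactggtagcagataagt
Atf3, chr1:191183334-191183583, minus strand: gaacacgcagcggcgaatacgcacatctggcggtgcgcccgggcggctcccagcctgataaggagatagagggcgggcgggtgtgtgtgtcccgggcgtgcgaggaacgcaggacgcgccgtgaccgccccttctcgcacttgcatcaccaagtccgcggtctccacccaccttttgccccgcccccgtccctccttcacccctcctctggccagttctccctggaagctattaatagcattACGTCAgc

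RefSeq windows of 300 bases, from 250 before to 50 after the start, were found for 7 members (Fos, Fosl2, Jun, Junb, Jund, Atf3 and Ier3) and searched on both strands. In Jun, TGACATCA lay at −45 to −38 from the start, and 3.62% of all 32851 promoter windows hold these letters. The short core TGACGT, chosen after the letters had been read, lay at −66 to −61 in Fos and, on the opposite strand, at −8 to −3 in Atf3, and is held by 7.51% of windows. The full CREB site TGACGTCA, which contains that core, was in none of the 7 windows and in 1.79% of all. The AP-1 site TGACTCA was likewise in none of the 7 and in 5.20% of all. The CArG box, which SRF binds, was in none of the 7 and in 1.63%, and the ETS letters CCGGAAG were in none and in 8.86%. The GC box GGGCGG was in 5 of the 7 (Fos, Fosl2, Jun, Atf3 and Ier3) and in 35.7% of all windows. These matches describe letters in a window and are no measurement of binding. Letters outside the windows were not searched, and Egr1, Ier2 and Fosl1 had no window.

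The range over the 3 arrays ran from 0.12 log2 units for Egr1 to 1.51 for Fos, and its median over the 8 detected members was 0.48, against 0.41 over all 7950 detected genes. Only Fos (1 of 8, 12.5%) spanned over 2-fold, and 10.1% of all detected genes did so. A wider range than that of Fos was found in 3.52% of detected genes, a wider range than that of Fosl2 in 16.4%, and a wider range than that of Atf3 in 22.1%. For Jun the share was 32.6%, for Ier3 51.1%, for Jund 54.3%, for Junb 65.8% and for Egr1 92.1%. With quantile normalisation, Egr1 was thus among the steadier genes on these arrays and Fos among the least steady.

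**Figure D2:**
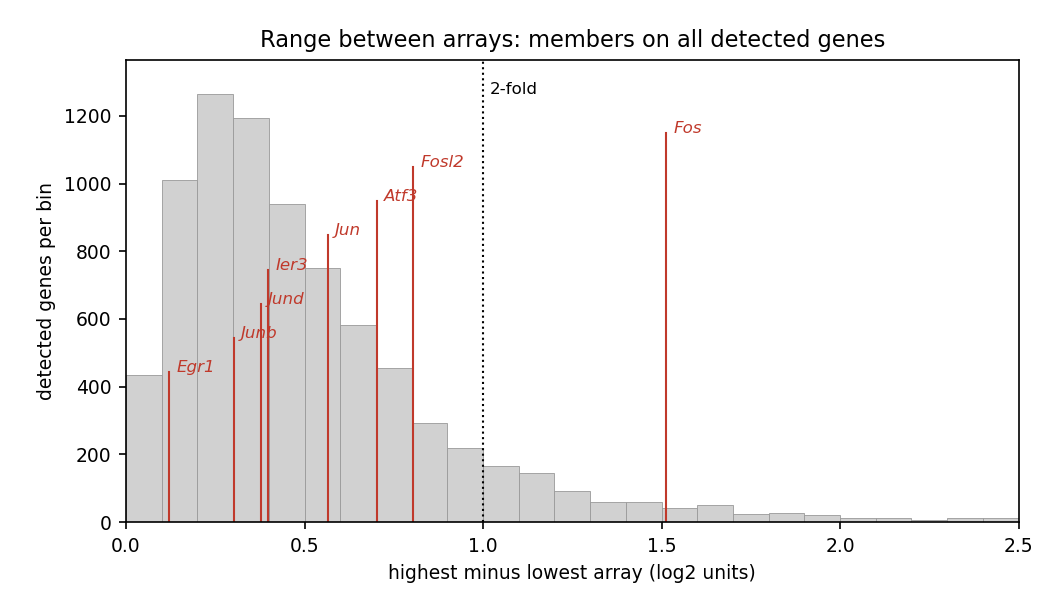
Histogram of the range between arrays (highest minus lowest, log2 units, horizontal axis) over all 7950 detected genes, with the number of genes per bin on the vertical axis; 71 genes beyond 2.5 are not drawn. Red lines mark the 8 detected members (their heights carry no value), from Egr1 at 0.12 to Fos at 1.51, the only member to the right of the dotted 2-fold line.

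Most of this spread came with replicate 1. Without replicate 1, the median range was 0.15 log2 units over the 8 members, against 0.14 over all detected genes, and no member spanned over 2-fold, against 0.453% of all genes. The widest range among the members was then 0.40, for Ier3. Of the 8 members, 4 were lowest on replicate 1 (Fosl2, Junb, Jund and Egr1), which is 50%, against 43.4% of all detected genes. Another 3 (Fos, Jun and Atf3), or 37.5%, were highest there, against 43.3% of all detected genes. Both shares are near the background, so the members as a set did not lean to one side on replicate 1, and genes of the same family lay on opposite sides.

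The direction on replicate 1 depended on the scaling for the members with small deviations. Without normalisation between arrays, all detected genes had a median deviation of 0.26 log2 units on replicate 1, and there Junb, Jund, Egr1 and Ier3 stood above their 3-array mean, whereas with quantile normalisation they stood below it. Fos, Jun, Atf3 and Ier2 stood above their mean and Fosl2 below it under each of the 4 scalings tried. Relative to the median of all detected genes, the sign of each of the 9 members was the same under the 4 scalings. Fos stood at 0.97, 0.79, 1.00 and 0.78 above that median with background correction and quantile normalisation, quantile normalisation alone, background correction alone and the authors' processed values. Fosl2 stood at −0.45, −0.42, −0.44 and −0.42 under the same scalings. The smaller values of Fos came with quantile normalisation alone and with the authors' processed values.

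**Figure D3:**
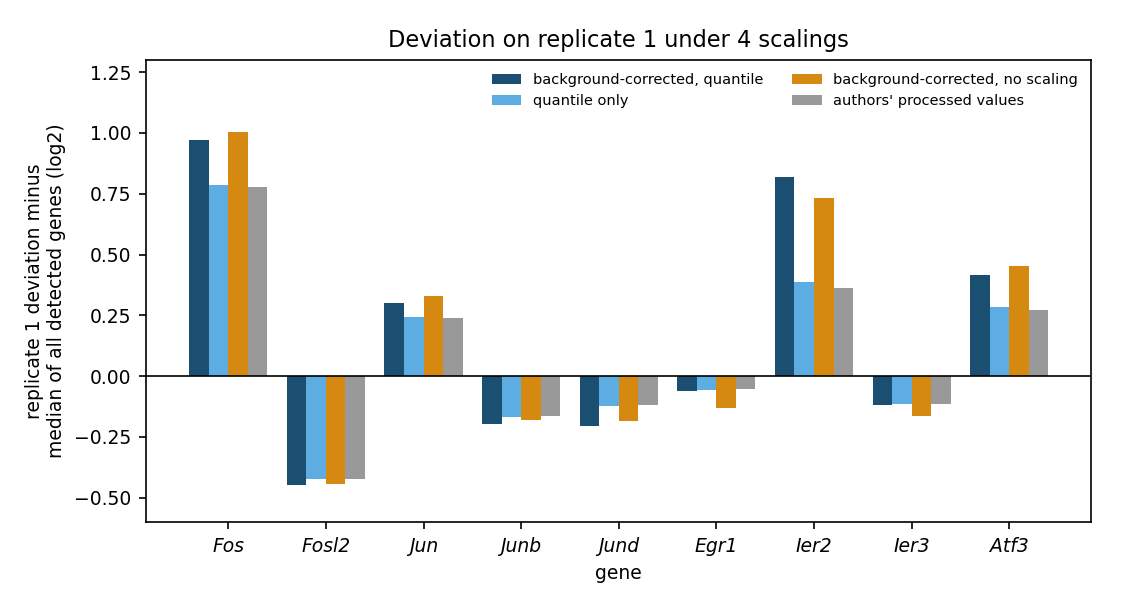
Deviation of each gene on replicate 1 from its 3-array mean, minus the median deviation of all detected genes (log2 units, vertical axis), under 4 scalings shown as bars. Fos, Jun, Ier2 and Atf3 are above 0 and Fosl2, Junb, Jund, Egr1 and Ier3 below 0 under each scaling; Fos ranges from 0.78 to 1.00.

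The remaining AP-1 proteins were represented by 8 of 13 genes, of which 5 were detected. Of those 5, 4 were lowest on replicate 1, against 43.4% of all detected genes. Without normalisation between arrays 0 of the 5 were, against 16.1% of all detected genes. Batf2, an interferon-inducible BATF protein, was at 7.44, at background, and at 5.98 on replicates 1, 2 and 3. Batf3 was above background on replicate 1 alone (detection p of 0, 0.0577 and 0.0801). Jdp2, which encodes a repressor that dimerises with JUN, was at 7.74, 8.34 and 8.14, and Atf7, which encodes a relative of ATF2, was at 7.98, 8.32 and 8.46. None of the 5 spanned over 2-fold.

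Of 29 other immediate early genes, 22 had a named probe and 17 were detected. On replicate 1, 13 of the 17 were lowest and 1 was highest, against 43.4% and 43.3% of all detected genes, and their median deviation there was −0.29 log2 units. Without normalisation between arrays, 8 were lowest and 7 highest, against 16.1% and 71.8% of all detected genes, and their median relative to all genes was −0.34. The SRF-dependent zinc finger genes Egr2 and Egr3 and the nuclear receptor gene Nr4a2 were not detected on all 3 arrays. Egr3, a relative of Egr1, was not above background on replicate 1 (detection p of 0.0118) and was at 6.96 and 6.91 on replicates 2 and 3. The widest ranges belonged to Sgk1, a serum- and glucocorticoid-induced kinase gene, at 10.35, 11.96 and 11.99, and Klf4, a Krüppel-like factor gene, at 6.48, 8.08 and 7.86. Both were lowest on replicate 1, where Fos was highest.

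Upstream of the immediate early promoters, the MAP kinase cascade had 11 of 20 genes with a named probe, and all 11 were detected. Examples were Nras, which encodes a RAS protein (11.78 ± 0.41, n = 3), Araf, which encodes a RAF kinase (10.19 ± 0.20, n = 3), and Map2k2, which encodes the ERK kinase MEK2 (11.62 ± 0.13, n = 3). None of the 11 spanned over 2-fold, and the widest ranges, 0.86 for both, were those of the kinase genes Rps6ka5 and Rps6ka3. On replicate 1, 9 of the 11 were lowest, where 43.4% of all detected genes were. Without normalisation between arrays 4 of the 11 were lowest, where 16.1% of all detected genes were. Of 12 genes for factors that act on these promoters, 8 had a named probe and 6 were detected. All 6 were lowest on replicate 1 with quantile normalisation and 1 without normalisation between arrays, beside the same shares of all genes. Elk1, Creb1, Mef2a and Mef2d had no named probe. Srf was at 9.83, 9.90 and 9.97 (9.90 ± 0.07, n = 3), and its ETS partners Elk4 and Elk3 were at 9.18 ± 0.29 (n = 3) and 6.07 ± 0.31 (n = 3). Ets1, an ETS factor gene, had the widest range in this list, at 9.52, 10.30 and 10.38.

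Feedback inhibitors of MAP kinase signalling are themselves induced by the pathway. Of 13 genes, 10 had a named probe and 8 were detected, while Dusp2, Spry1 and Spry2 had no named probe. Dusp1, the phosphatase gene usually induced beside Fos, was at 10.60, 10.45 and 10.22 (10.42 ± 0.19, n = 3). Dusp4 was at 7.69, 8.36 and 8.34, and Dusp5, whose product acts on nuclear ERK, was at 6.84, 8.13 and 8.35. Dusp10, whose product acts on JNK and p38, was at 6.01, 6.60 and 6.86. Of the 8, 4 were lowest and 2 highest on replicate 1, against 43.4% and 43.3% of all detected genes. Without normalisation between arrays, 3 were lowest and 4 highest, against 16.1% and 71.8%. Among the genes named, Dusp1 was highest and Dusp4, Dusp5 and Dusp10 lowest on replicate 1. Dusp5 was the only gene of this list to span over 2-fold, as 10.1% of all detected genes did. It did not do so without normalisation between arrays.

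Genes known as AP-1 targets in fibroblasts and tumour cells varied most among the lists of this pathway. Of 16, 10 had a named probe and 9 were detected, and 6 of the 9 spanned over 2-fold, against 10.1% of all detected genes. Of the 9, 8 were lowest on replicate 1, against 43.4% of all detected genes, and this count was also 8 of 9 under the other scalings. Their median deviation on replicate 1, relative to all detected genes, was −0.91 log2 units and lay between −0.90 and −0.80 with the other 3 scalings. The urokinase gene Plau was at 8.04, 9.03 and 8.60, its receptor gene Plaur at 7.08, 8.44 and 8.52, and the metalloprotease inhibitor gene Timp1 at 10.49, 12.33 and 12.29. The growth factor gene Hbegf had the widest range, at 6.14, 8.37 and 8.82. Without replicate 1, none of the 9 spanned over 2-fold, against 0.453% of all detected genes. On the array where these genes were lowest, Fos, Jun and Atf3 were at their highest and Fosl2, Junb, Jund and Egr1 at their lowest with quantile normalisation. The relation cannot be tested over 3 arrays.

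**Figure D4:**
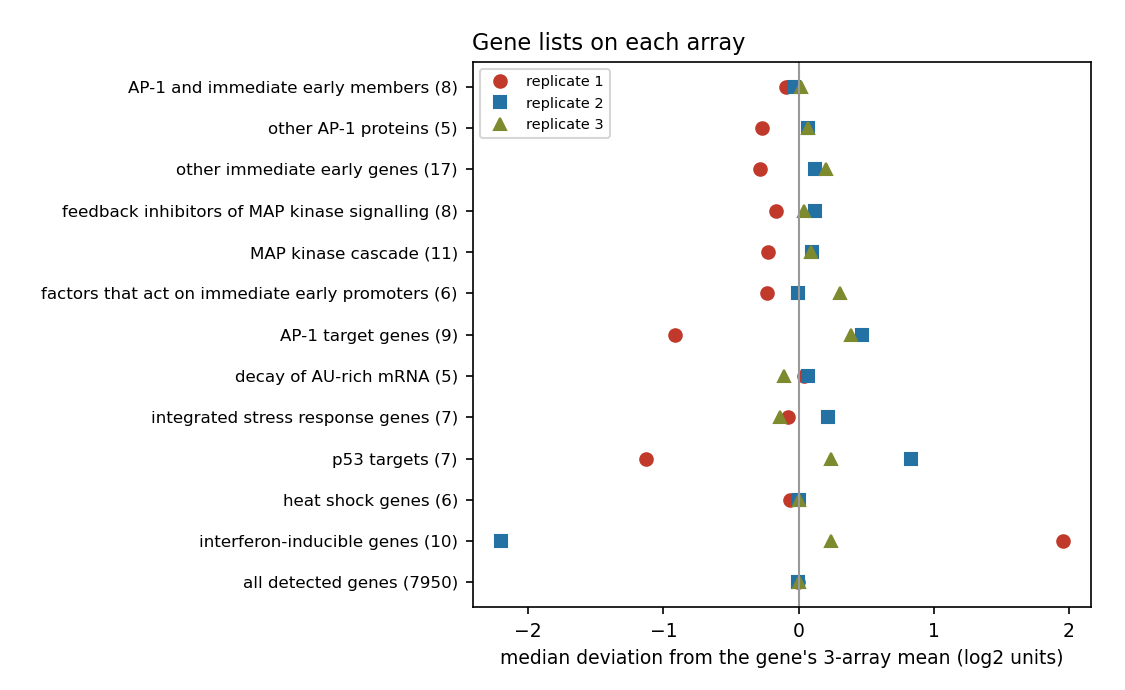
For each gene list, the middle value of how far its detected genes lay from their own means (log2 units, horizontal axis), one symbol for each of replicates 1, 2 and 3; the number of detected genes is in brackets and all 7950 detected genes are the bottom row. The members lie near 0 on each array (−0.0908 on replicate 1), whereas AP-1 target genes (−0.91) and p53 targets (−1.13) lie low and interferon-inducible genes (1.96) high on replicate 1.

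Other gene groups moved with replicate 1 as well. Of 10 p53 targets, 7 were detected, 6 of them spanned over 2-fold, against 10.1% of all detected genes, and 6 were lowest on replicate 1, against 43.4%. The count over 2-fold was 5 with quantile normalisation alone and with the authors' processed values, and 4 with the mean of a gene's probes. Among these genes were Cdkn1a at 8.06, 11.95 and 11.15, Ccng1 at 9.46, 12.38 and 11.65 and Mdm2 at 10.29, 12.25 and 11.71 on replicates 1, 2 and 3. Atf3, itself a p53-responsive gene, was highest on the array where these genes were lowest. Of 11 interferon-inducible genes, 10 were detected and all 10 were highest on replicate 1, against 43.3% of all detected genes. Igtp was at 12.55, 7.64 and 10.98, Oasl2 at 10.03, 5.39 and 7.61, Gbp2 at 12.27, 7.66 and 10.46 and Gbp3 at 11.45, 6.89 and 9.56. Between replicates 2 and 3, 9 of these 10 interferon-inducible genes still spanned over 2-fold, against 0.453% of all detected genes. Fos, Jun and Atf3 differed by 0.12, 0.23 and 0.17 log2 units between the same arrays. The part of these differences between cultures in the levels of the AP-1 and immediate early genes was not tested.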

How the data were processed

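Total RNA of 3 biological replicates was labelled with biotin and hybridised to Illumina BeadArrays, per the labels' protocols. The deposited unprocessed table holds a linear intensity and a detection p-value for every probe, per the file headers. Processed log2 values were deposited for 17754 probes. Once sorted, the columns of that table differ by at most 0.00036, as quantile normalisation gives. Limma is named in the submitters' processing notes, with no version; the bead summary software is not given in the sources used.

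The levels reported came from the unprocessed intensities through neqc in limma 3.58.1 (R 4.3.3), which estimated the background from the detection p-values, added an offset of 16, quantile normalised the arrays and took log2. Genes were named through the platform annotation, in which 15045 probes had 1 gene symbol, 5 had several (not used) and 2704 were not listed, and symbols were updated by Entrez identifier (15026 matched RefSeq). A gene is represented by its probe with the highest mean, and is detected where that probe had a detection p under 0.01 on all 3 arrays. Levels of different probes were not compared. Tables were handled in Python 3.11.15 with pandas 2.3.3, and the steps were tested on simulated data.

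The members and the 13 gene lists were chosen with earlier results of these data known. From each list of the pathway the text names the first 3 genes with a named probe, the 2 detected genes with the widest range, and genes with no named probe where there were 5 or fewer; for the other AP-1 proteins these names are not reported here. The number of arrays (3) limits the precision, and no p-value between samples was computed. The alternatives were other detection thresholds, other normalisations, the mean of a gene's probes, no filter on dim probes and each replicate left out. Protein sequences were not used here.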

Additional observations from a re-analysis of the deposited data

How the results depend on the processing

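The count of 8 detected members was 8 under each alternative but 1: with detection on at least 1 array it was 9, since Ier2 joined. The count spanning over 2-fold was 2 without normalisation between arrays, where Atf3 joined Fos and 18.1% of all detected genes did so, and 2 with no filter on dim probes, where Ier2 joined. It was 0 to 1 with a replicate left out, and 0 without replicate 1. The median range of the members was 0.153 to 0.455 log2 units with a replicate left out, the lowest without replicate 1. Without normalisation between arrays, 1 detected member was lowest and 6 were highest on replicate 1, near the 16.1% and 71.8% of all detected genes, and the deviation on replicate 1 was 0.0801 for Junb, 0.0768 for Jund, 0.129 for Egr1 and 0.0973 for Ier3, all negative with quantile normalisation. That setting leaves in place a shift of 0.26 log2 units of all detected genes on replicate 1. Of the mean levels, 55 moved by less than the SD between arrays and 8 by more, with quantile normalisation alone (Jun, Junb, Jund, Ier2 and Atf3) or in the authors' processed values (Jund, Ier2 and Atf3). The deviations on replicate 1 under other scalings, and the median range without Fos (0.40), were chosen after seeing the data. No paired analysis was possible because there is a single group. Each member was read by 1 named probe, so agreement between probes was not examined. Only 3 arrays limit the precision, and dim members such as Jund, Atf3 and Ier2 lie nearest to background.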

Other observations

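Lists bearing on the stability of immediate early mRNAs and on stress were also measured. Of 7 genes for proteins that act on AU-rich mRNAs, 5 were detected. Zfp36, which encodes the decay factor tristetraprolin, was at 8.25, 8.28 and 8.10 on replicates 1, 2 and 3 (8.21 ± 0.10, SD, n = 3), and Elavl1, which encodes the stabilising protein HuR, was at 10.64, 10.70 and 10.52. Zfp36l1, a relative of Zfp36, was at 12.48, 11.48 and 11.27, highest on replicate 1. It was the only gene of the 5 to span over 2-fold, as 10.1% of all detected genes did. Khsrp was at 9.35, 9.73 and 9.46, lowest on replicate 1. On that array 1 of the 5 was lowest and 2 were highest, against 43.4% and 43.3% of all detected genes. Without normalisation between arrays, 0 were lowest and 4 highest, against 16.1% and 71.8%.

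All 7 genes of the integrated stress response were detected. On replicate 1, 3 were lowest and 3 highest, against 43.4% and 43.3% of all detected genes. Atf4, which encodes an activator of Atf3, was at 11.73, 11.40 and 11.26, and Ddit3, which encodes CHOP, was at 9.74, 10.36 and 10.05. Both Atf4 and Atf3 were highest on replicate 1, and a link between their levels was not tested. Sesn2, also a p53 target, was at 5.37, 6.53 and 6.18. It was the only gene of the 7 to span over 2-fold, as 10.1% of all detected genes did. None of the 7 did with quantile normalisation alone, the authors' processed values or the mean of a gene's probes. All 6 heat shock genes were detected and none spanned over 2-fold; Hspa1a, an inducible gene, was at 6.90, 6.83 and 6.72, and Hspa8, its constitutive relative, at 13.54, 13.61 and 13.71.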
